A study of Mus musculus with 2 samples.

Results

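The 7 genes described here are Lef1, Tcf7, Il7r, S1pr1, Klf2, Satb1 and Dapl1, which are transcribed in naive or resting T cells or govern where lymphocytes travel. They were taken by gene symbol from the 27998 genes of the expression tables, and each symbol matched 1 entry. Their transcripts were counted as unique molecular identifiers (UMIs, 1 per captured transcript) in CD8 T, CD4 T, NK and B cells, gated with marker genes that exclude the 7. The cells came from droplet-based 3' single-cell RNA sequencing of the non-parenchymal fraction of mouse liver, which holds leukocytes, sinusoidal endothelium and other cells apart from hepatocytes. The PKM2ΔMAC library came from mice named for a deletion of PKM2 in macrophages, and the PKM2FL/FL library from mice named for the floxed allele alone. PKM2 is a pyruvate kinase isoform encoded by Pkm. Mice of both genotypes had eaten an MCD diet, which lacks methionine and choline and gives a fatty, inflamed liver, for 8 weeks. The sources used here state neither the Cre driver nor the age and number of mice behind each library, and lymphocytes are not the cells the deletion is named for. With 1 library per genotype there were no replicates, so a difference describes only this pair of libraries and the genotypes were not tested against each other. Intervals in parentheses are at 95% and cover counting error only.

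Naive T cells circulate between blood and lymphoid tissue until they meet antigen. LEF1 and TCF-1, the proteins of Lef1 and Tcf7, are related DNA-binding factors that T cells need to develop and that naive and long-lived memory cells keep. SATB1 organises chromatin in thymocytes and T cells. Il7r encodes the α chain of the receptor for interleukin 7, a survival signal for resting lymphocytes. S1pr1 encodes a receptor for sphingosine 1-phosphate that draws lymphocytes out of tissue into blood and lymph, and KLF2 is a zinc-finger factor that promotes its transcription in T cells. Dapl1 encodes a small protein related to death-associated protein 1.

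The PKM2ΔMAC library held 8949 barcodes and 43134027 UMIs, against 10054 barcodes and 54519921 UMIs in the PKM2FL/FL library, and 8549 and 9510 cells were kept. The CD8 gate held 976 PKM2ΔMAC cells and 731 PKM2FL/FL cells (11.4% and 7.69% of kept cells). The CD4 gate, the smallest, held 139 PKM2ΔMAC cells and 337 PKM2FL/FL cells, the NK gate 1592 and 1965, and the B gate 2208 and 1938. Median depth in the PKM2ΔMAC library was 6596.5 UMIs per cell in the CD8, 4658 in the CD4, 4846.5 in the NK and 2731 in the B gate, against 6072, 5060, 5019 and 3166 in the PKM2FL/FL library. The CD3 genes summed to between 1294 and 1449.9 CPM (UMIs scaled to a gate total of 1000000) in the T cell gates, the 4 NK markers to 4104 and 4103 CPM in the NK gate and the 4 B cell markers to 4150 and 4314 CPM in the B gate. Pkm itself was at 172 CPM in PKM2ΔMAC cells and 259 CPM in PKM2FL/FL cells over all kept cells (ratio 0.665, 0.646 to 0.685), and its ratio lay between 0.731 and 0.806 in the 4 lymphocyte gates. Since 3' tags may fall outside the deleted exons, Pkm levels are no check of the deletion. Neutrophil markers, which free RNA can carry into any droplet, summed to 151 CPM in PKM2ΔMAC and 93.6 CPM in PKM2FL/FL CD8 cells, 184 and 88.3 CPM in CD4 cells, 176 and 118 CPM in NK cells and 271 and 146 CPM in B cells. With each gene's neutrophil level subtracted, S1pr1 kept log2 ratios of 0.39, 0.93, 0.49 and 0.64 in the CD8, CD4, NK and B gates, while Satb1 moved to 0.59 in CD8 cells, near 1.5-fold, and to 0.02 in B cells. Neutrophils were shallower, at a median of 2358 and 2173 UMIs. Equal free RNA per droplet would be fewer CPM in the deeper lymphocytes, so this subtraction may take off too much, most of all in CD8 cells. The hepatocyte markers stayed at or below 2.53 CPM in the 4 gates. Erythroid markers summed to 133 CPM in PKM2ΔMAC and 39.7 CPM in PKM2FL/FL CD8 cells, 7.66 and 10.6 CPM in CD4 cells, 17.6 and 10.6 CPM in NK cells and 92.1 and 119 CPM in B cells, and their part in the results was not tested. The libraries shared 17 cell barcodes, of which 6 fell in a lymphocyte gate in both. Neutrophils (577 PKM2ΔMAC and 554 PKM2FL/FL cells), gated by Csf3r with S100a8 or S100a9, served to show how many UMIs free RNA leaves in cells that should lack T cell transcripts.

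The first comparison set each gene's level side by side across the gates within a library. Lef1, Tcf7, Il7r and Dapl1 were found in B cells only at the neutrophil level, while S1pr1 and Satb1 lay above that level in B cells and Klf2 was high in all gates, neutrophils included. Lef1 was at 303 CPM in CD8, 255 CPM in CD4, 56.2 CPM in NK and 5.12 CPM in B cells of the PKM2ΔMAC library. The same gene was at 272 CPM, 247 CPM, 49.5 CPM and 8.19 CPM in the PKM2FL/FL library, so in both the order ran from CD8 and CD4, whose intervals overlap, through NK to B. As a direct ratio, CD8 over CD4 was 1.19 (1.02 to 1.38) in the PKM2ΔMAC library and 1.10 (0.992 to 1.23) in the PKM2FL/FL library. Tcf7 followed the same order with a smaller step to NK cells, which also use TCF-1 in their development. It had 326, 332, 160.2 and 5.43 CPM in CD8, CD4, NK and B cells of the PKM2ΔMAC library, against 275, 252, 138 and 8.79 CPM in the PKM2FL/FL library. CD8 cells thus held 2.04 times (1.90 to 2.18) the Tcf7 level of NK cells in the PKM2ΔMAC library and 1.996 times (1.85 to 2.15) in the PKM2FL/FL library, where for Lef1 the folds were 5.39 (4.87 to 5.96) and 5.50 (4.97 to 6.09).

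Il7r was highest in CD4 cells in both libraries. It was at 1087 CPM in CD4, 853 CPM in CD8, 539.8 CPM in NK and 12.6 CPM in B cells of the PKM2ΔMAC library, against 926, 685, 392 and 25.0 CPM in the PKM2FL/FL library, and no neighbours in that order had overlapping intervals. Mature B cells are known to lack the interleukin 7 receptor, and neutrophils carried 20.7 and 31.2 CPM of Il7r in the PKM2ΔMAC and PKM2FL/FL libraries. Dapl1 was the most restricted of the 7. CD8 cells had 168 CPM and 137 CPM in the PKM2ΔMAC and PKM2FL/FL libraries, CD4 cells 33.2 and 48.9 CPM, and NK cells just 7 UMIs in each library. In B cells Dapl1 had 3 UMIs per library, which left CD8 cells 360.3 times (123 to 1750) and 306 times (104 to 1485) above B cells.

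S1pr1 and Klf2 had another order. S1pr1 was at 252 CPM in CD4, 167 CPM in B, 122 CPM in CD8 and 21.4 CPM in NK cells of the PKM2ΔMAC library, and at 135, 109.8, 94.4 and 17.1 CPM in the PKM2FL/FL library, where the B and CD8 intervals overlap. The direct ratio of CD8 over B in the PKM2FL/FL library was 0.860 (0.764 to 0.967). NK cells, which are known to leave tissue mainly through the related receptor S1PR5, were lowest in both libraries. Klf2 was at 1105 CPM in B, 926 CPM in CD4, 688 CPM in CD8 and 610.5 CPM in NK cells of the PKM2ΔMAC library, against 986, 629, 701 and 526 CPM in the PKM2FL/FL library, a spread of 1.81-fold and 1.87-fold. CD4 and CD8 changed places between the libraries. Klf2 is transcribed in myeloid and endothelial cells as well, and neutrophils had 808 CPM in the PKM2ΔMAC and 1147 CPM in the PKM2FL/FL library. Satb1 was the most even across the 4 gates, from 316 CPM in NK to 457 CPM in CD8 cells of the PKM2ΔMAC library and from 345 CPM in NK to 437 CPM in B cells of the PKM2FL/FL library, with 58.1 and 86.1 CPM in neutrophils.

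**Figure D1:**
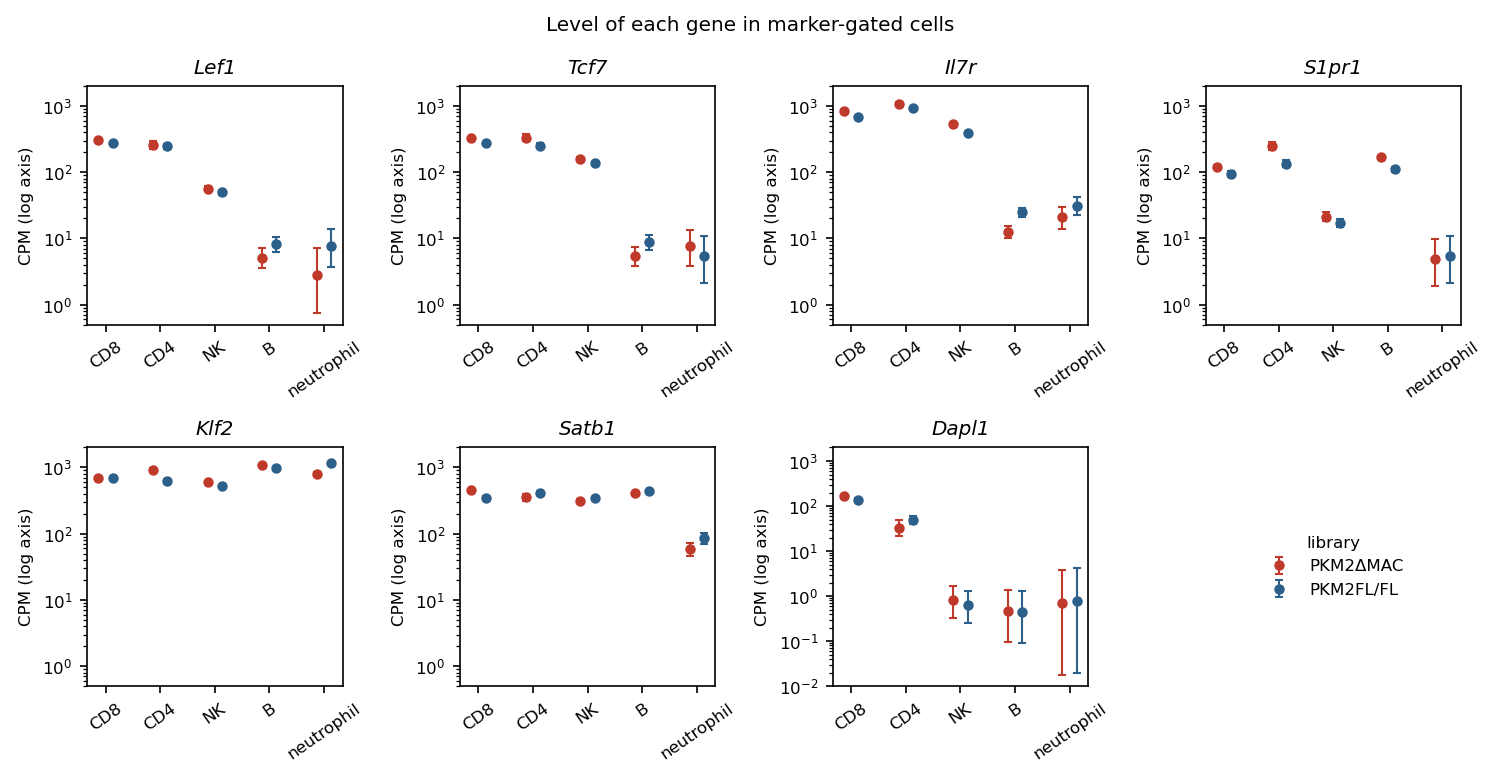
Level of each of the 7 genes (CPM, log axis) in the CD8, CD4, NK, B and neutrophil gates, with PKM2ΔMAC in red and PKM2FL/FL in blue, points for the summed UMIs of 1 library and bars for the exact 95% Poisson interval. Lef1, Tcf7, Il7r and Dapl1 drop to the neutrophil level in B cells, S1pr1 and Satb1 stay above it, and Klf2 in neutrophils (808 and 1147 CPM) lies within or above its range in the lymphocyte gates.

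In mm10, with GENCODE M21, Lef1 spans chromosome 3 from 131110471 to 131224356 on the plus strand, and S1pr1 the same chromosome from 115710433 to 115715072 on the minus strand. Tcf7 spans chromosome 11 from 52252371 to 52283014 and Il7r chromosome 15 from 9505788 to 9530176, both on the minus strand. Klf2 spans chromosome 8 from 72319033 to 72321656 and Dapl1 chromosome 2 from 59484653 to 59505020, both on the plus strand, and Satb1 chromosome 17 from 51736187 to 51833290 on the minus strand.

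The windows of 250 bases before the annotated starts of the genes with the narrowest and the broadest expression are printed here, with Satb1 beside them, to show how unlike they are in base composition. The sequences are RefSeq's for build GRCm38.p6, and the set of windows used here held entries for 6 of the 7 genes, with none for S1pr1. They run 5' to 3' on the gene's own strand, and capitals mark the core CACCC of sites bound by KLF factors on either strand (GGGTG on the other).
Dapl1 (chr2:59484403-59484652, plus strand): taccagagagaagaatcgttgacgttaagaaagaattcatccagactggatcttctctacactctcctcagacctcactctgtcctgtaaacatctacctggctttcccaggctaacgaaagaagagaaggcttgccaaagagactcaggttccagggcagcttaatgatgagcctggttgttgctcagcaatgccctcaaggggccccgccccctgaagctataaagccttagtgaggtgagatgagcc
Klf2 (chr8:72318812-72319061, plus strand): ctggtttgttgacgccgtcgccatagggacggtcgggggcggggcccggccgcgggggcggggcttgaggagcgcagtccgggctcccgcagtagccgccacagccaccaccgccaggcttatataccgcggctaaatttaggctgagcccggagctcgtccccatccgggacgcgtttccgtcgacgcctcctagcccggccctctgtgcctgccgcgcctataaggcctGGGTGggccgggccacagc
Satb1 (chr17:51833291-51833540, minus strand): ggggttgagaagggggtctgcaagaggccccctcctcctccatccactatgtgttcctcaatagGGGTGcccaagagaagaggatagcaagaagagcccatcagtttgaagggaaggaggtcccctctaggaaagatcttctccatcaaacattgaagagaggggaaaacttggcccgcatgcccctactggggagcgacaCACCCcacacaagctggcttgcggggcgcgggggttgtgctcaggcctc
The Dapl1 window held 4 CpG dinucleotides at 50% G and C and no CACCC, the Klf2 window 29 CpG at 71.2% with 1 CACCC, and the Satb1 window 5 CpG at 58% with 2. The median of all 32851 windows of this length was 6 CpG at 52.4%. CACCC on either strand was found in 52.0% of all windows. The cores CTTTGA and CTTTGT, which TCF-1 and LEF1 recognise, were found on neither strand in any of the 6 matched genes and in 27.6% of all windows. These matches describe letters, not bound sites. The last 29 bases of the Klf2 window lie past the start that GENCODE gives, so they are transcribed in that annotation.

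The next comparison asked how the 7 genes differed between genotypes in CD8 T cells. In this gate 6 of the 7 were modestly higher in the PKM2ΔMAC library, with intervals above 1 as 7.32% of all genes measured had, and Klf2 was level. Satb1 was at 457 CPM in PKM2ΔMAC cells and 350.2 CPM in PKM2FL/FL cells (ratio 1.30, 1.23 to 1.38), and S1pr1 at 122 and 94.4 CPM (1.29, 1.15 to 1.45). Il7r was at 853 and 685 CPM (1.24, 1.19 to 1.30), Dapl1 at 168 and 137 CPM (1.23, 1.11 to 1.35), Tcf7 at 326 and 275 CPM (1.19, 1.11 to 1.27) and Lef1 at 303 and 272 CPM (1.11, 1.04 to 1.19). Klf2 was at 688 CPM in PKM2ΔMAC cells and 701 CPM in PKM2FL/FL cells (0.982, 0.939 to 1.03). No gene reached 1.5-fold in either direction, a size that 3.73% of the 10001 genes measured in the gate (at least 20 UMIs over both libraries) passed as higher and 12.9% as lower. The median log2 ratio of the 7 was 0.30, beside -0.14 over all genes measured, and relative to that shift Klf2 lay at 0.11, on the higher side, and the others between 0.29 and 0.52.

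By marker UMIs, the CD8 gate did not divide in the same way in both libraries. Cells of a Ccl5 or Nkg7 type (at least 3 UMIs of these effector genes together and none of Ccr7, a lymph node homing gene) made up 23.9% (21.2 to 26.7) of PKM2ΔMAC CD8 cells and 43.4% (39.7 to 47.0) of PKM2FL/FL CD8 cells. Cells of a Ccr7 type (a UMI of Ccr7 and at most 1 UMI of Ccl5 and Nkg7) made up 14.96% (12.8 to 17.4) and 13.95% (11.5 to 16.7), and the rest 61.2% and 42.7%. Ccl5 was also found in B cells, at 113 CPM in the PKM2ΔMAC and 266 CPM in the PKM2FL/FL library. Free RNA can carry it into any droplet, and its part in these shares was not tested. The 4 NK marker genes moved with this make-up, at 181 CPM in the PKM2ΔMAC gate and 393 CPM in the PKM2FL/FL gate. The 7 genes themselves were higher in the Ccr7 type than in the Ccl5 or Nkg7 type in both libraries. Dapl1 was 2.88 times higher (2.24 to 3.72) in PKM2ΔMAC cells and 3.64 times (2.80 to 4.73) in PKM2FL/FL cells, and Lef1 2.75 and 4.74 times. S1pr1 was 1.97 and 4.12 times higher, Tcf7 1.75 and 2.59 times, Satb1 1.62 and 2.12 times, and Il7r 1.33 and 2.21 times. Klf2 stood at 1.39 and 1.72 times, near Il7r in the PKM2ΔMAC library and the smallest step in the PKM2FL/FL library. In the Ccl5 or Nkg7 type Klf2 was at 671 CPM in PKM2ΔMAC cells and 555 CPM in PKM2FL/FL cells, and Dapl1 at 75.2 and 59.3 CPM.

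Within the Ccr7 type the interval of the ratio included 1 for each of the 7 genes. Lef1 was at 532 CPM in PKM2ΔMAC cells and 537 CPM in PKM2FL/FL cells (ratio 0.991, 0.849 to 1.16), Il7r at 963 and 967 CPM (0.996, 0.888 to 1.12) and S1pr1 at 179 and 183 CPM (0.978, 0.748 to 1.28). Satb1 lay farthest apart there, at 517 and 466 CPM (1.11, 0.943 to 1.305). In the 69 PKM2ΔMAC and 42 PKM2FL/FL cells of this type with no UMI of Ccl5 and Nkg7 the intervals again included 1, with Satb1 at 564 and 447 CPM (1.26, 0.981 to 1.63), Lef1 at 567 and 456 CPM (1.24, 0.969 to 1.601) and Il7r at 939.7 and 1053 CPM (0.893, 0.750 to 1.06). In the Ccl5 or Nkg7 type most of the genes were higher in the PKM2ΔMAC library, by 1.71-fold for Lef1 (194 and 113 CPM, interval 1.43 to 2.04), 1.54-fold for Tcf7 (246 and 159.7 CPM, 1.32 to 1.80), 1.65-fold for Il7r (723 and 438 CPM, 1.51 to 1.81) and 1.45-fold for Satb1 (1.27 to 1.66). S1pr1 stood farthest apart in these cells, with 131 UMIs in 233 PKM2ΔMAC cells and 90 UMIs in 317 PKM2FL/FL cells, or 91.2 and 44.5 CPM (2.05, 1.56 to 2.71). Dapl1 had the interval that included 1 (1.27, 0.968 to 1.66). Ccl5 itself was lower in the PKM2ΔMAC cells of this type, at 5873 and 11012 CPM, so the type was not the same in both libraries, and the part of that gap in these values was not tested. Among the remaining CD8 cells Lef1 (301 and 348 CPM, 0.864, 0.791 to 0.944) and Klf2 (654 and 768 CPM, 0.852, 0.803 to 0.904) were lower in the PKM2ΔMAC library and Satb1 higher (491 and 436 CPM, 1.13, 1.04 to 1.21). With the PKM2ΔMAC subset shares set to those of the PKM2FL/FL library, the ratio of the whole gate moved to 1.04 for Lef1, 1.06 for Dapl1, 1.12 for Tcf7, 1.201 for Il7r, 1.21 for Satb1, 1.23 for S1pr1 and 0.988 for Klf2. These 7 values lie nearer to 1 than those of the whole gate.

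**Figure D2:**
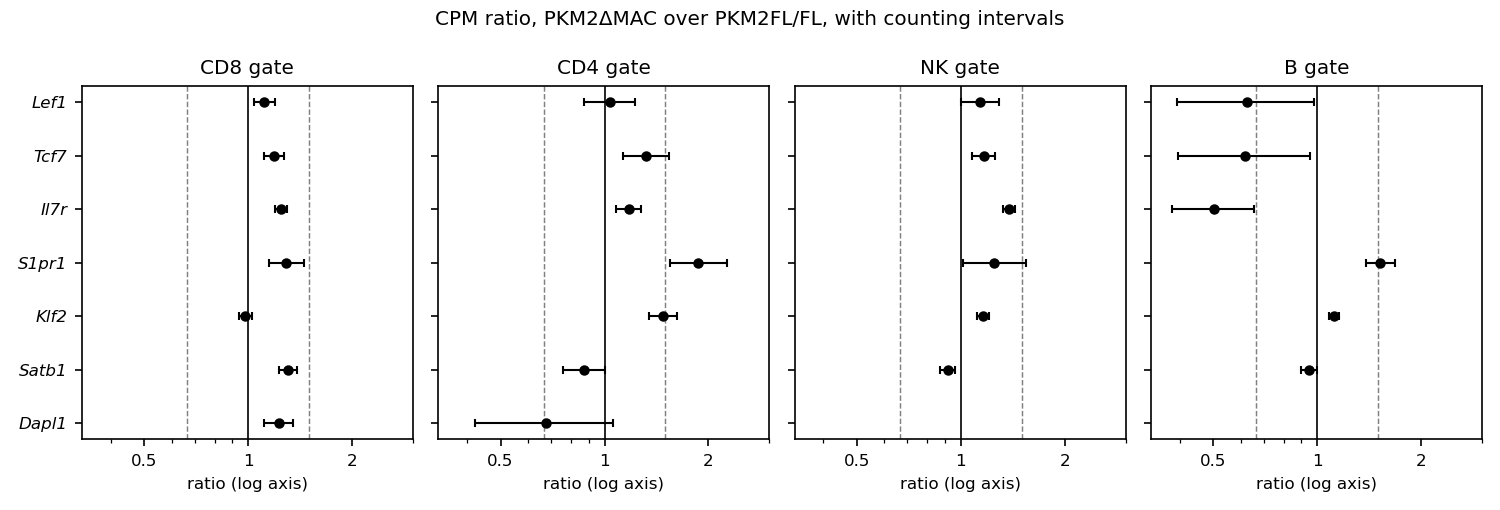
Ratio of CPM in the PKM2ΔMAC library over the PKM2FL/FL library (log axis) for each gene in the CD8, CD4, NK and B gates, with exact 95% counting intervals, a solid line at equal levels and dashed lines at 1.5-fold either way. S1pr1 lies right of the solid line in all 4 gates, from 1.2502 in NK to 1.87 in CD4 cells, and Dapl1 is left out of the NK and B gates, where it had 14 and 6 UMIs.

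In CD4 T cells S1pr1 and Klf2 were higher in the PKM2ΔMAC library, while Dapl1 and Satb1 were nominally lower. S1pr1 was at 252 CPM (218 to 289) in PKM2ΔMAC cells and 135 CPM (118 to 152) in PKM2FL/FL cells (ratio 1.87, 1.54 to 2.26), with a UMI in 60.4% and 37.4% of cells, or in 23.0% (16.3 to 30.9) and 12.6% (9.22 to 16.6) once each cell was thinned to 1000 UMIs. Neutrophils thinned to 1000 UMIs held S1pr1 in 0.524% and 0.556% of cells. At 2000 UMIs the CD4 shares lay closer, at 31.9% (24.1 to 40.4) and 24.7% (20.1 to 29.7), and the intervals overlap at both depths. Klf2 was at 926 CPM (860 to 996) and 629 CPM (593 to 666), a ratio of 1.47 (1.34 to 1.62), but in cells thinned to 1000 UMIs its log2 ratio was 0.25 instead of 0.56. Tcf7 was at 332 and 252 CPM (1.32, 1.13 to 1.54), with a log2 ratio of 0.03 in thinned cells instead of 0.40, and Il7r at 1087 and 926 CPM (1.17, 1.08 to 1.27). Lef1 was level, at 255 and 247 CPM (1.03, 0.872 to 1.22). Dapl1 had 26 UMIs in PKM2ΔMAC cells and 92 UMIs in PKM2FL/FL cells, or 33.2 and 48.9 CPM (0.679, 0.421 to 1.06), and Satb1 was at 356 and 409 CPM (0.871, 0.757 to 1.0003). Both of these turned in thinned cells, to log2 ratios of 0.19 and 0.47. One of the 7 genes, S1pr1, passed 1.5-fold, as 9.32% of the 8130 genes measured in this gate did in that direction, and none passed as lower, where 16.5% did. The median log2 ratio of the 7 was 0.23, beside -0.07 over all genes.

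The CD4 gate also differed in make-up. Cells with a Zbtb16, Il4 or Klrb1c UMI, genes of NKT cells, were 15 of 139 in the PKM2ΔMAC library and 70 of 337 in the PKM2FL/FL library (10.8% and 20.8%), Foxp3 cells, the regulatory type, 11 and 28. The remaining conventional cells divided into 52 and 96 with a UMI of Ccr7 (37.4% and 28.5%) and 61 and 143 without (43.9% and 42.4%). S1pr1 was higher in PKM2ΔMAC cells in each of these 4 subsets. It was at 303 CPM in PKM2ΔMAC cells and 153 CPM in PKM2FL/FL cells without Ccr7 (1.98, 1.48 to 2.63), at 166 and 42.7 CPM in NKT-type cells (3.88, 1.97 to 7.59), at 209 and 87.8 CPM in Foxp3 cells (2.38, 1.16 to 4.99) and at 245 and 215 CPM in cells with Ccr7 (1.14, 0.826 to 1.57), an interval that includes 1. Counts behind the NKT-type and Foxp3 values were low, at 19 and 21 UMIs and 20 and 15 UMIs. Klf2 was higher in the cells without Ccr7, at 1171 and 706 CPM (1.66, 1.44 to 1.90), and in Foxp3 cells, at 730.0 and 257.5 CPM (2.84, 1.92 to 4.23). The Foxp3 value rests on 70 and 44 UMIs from just 11 and 28 cells, and its interval does not cover the spread between cells. In cells with Ccr7 Klf2 was at 918 and 907 CPM (1.01, 0.863 to 1.19).

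Lef1 was lower in the PKM2ΔMAC cells with Ccr7, at 461 CPM against 590.2 CPM in PKM2FL/FL cells (0.781, 0.627 to 0.966), while in cells without Ccr7 it was at 165 and 126 CPM, with an interval that includes 1 (1.31, 0.910 to 1.87). The step of Lef1 between these subsets was 2.79-fold (1.997 to 3.96) in the PKM2ΔMAC library and 4.70-fold (3.70 to 6.01) in the PKM2FL/FL library. Klf2 stepped in opposite directions, as its level with Ccr7 was 0.784 times that without (0.664 to 0.925) in the PKM2ΔMAC library and 1.28 times (1.13 to 1.46) in the PKM2FL/FL library. Dapl1 was mostly in the cells with Ccr7, with 22 UMIs in the PKM2ΔMAC library and 80 UMIs in the PKM2FL/FL library, or 81.7 and 162 CPM (0.504, 0.299 to 0.816). Satb1 was high in NKT-type cells as well as in those with Ccr7, at 384 CPM in PKM2ΔMAC and 583 CPM in PKM2FL/FL NKT-type cells. Ccr7 itself was lower in the PKM2ΔMAC cells chosen for it, at 435 and 596 CPM, and Ccl5 was far lower in those without, at 762 and 4018 CPM (the part of these gaps in the Lef1 and Klf2 values was not tested). With the subset shares of the PKM2FL/FL library, the ratios of the gate were 1.81 for S1pr1, 1.398 for Klf2 and 0.542 for Dapl1.

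**Figure D3:**
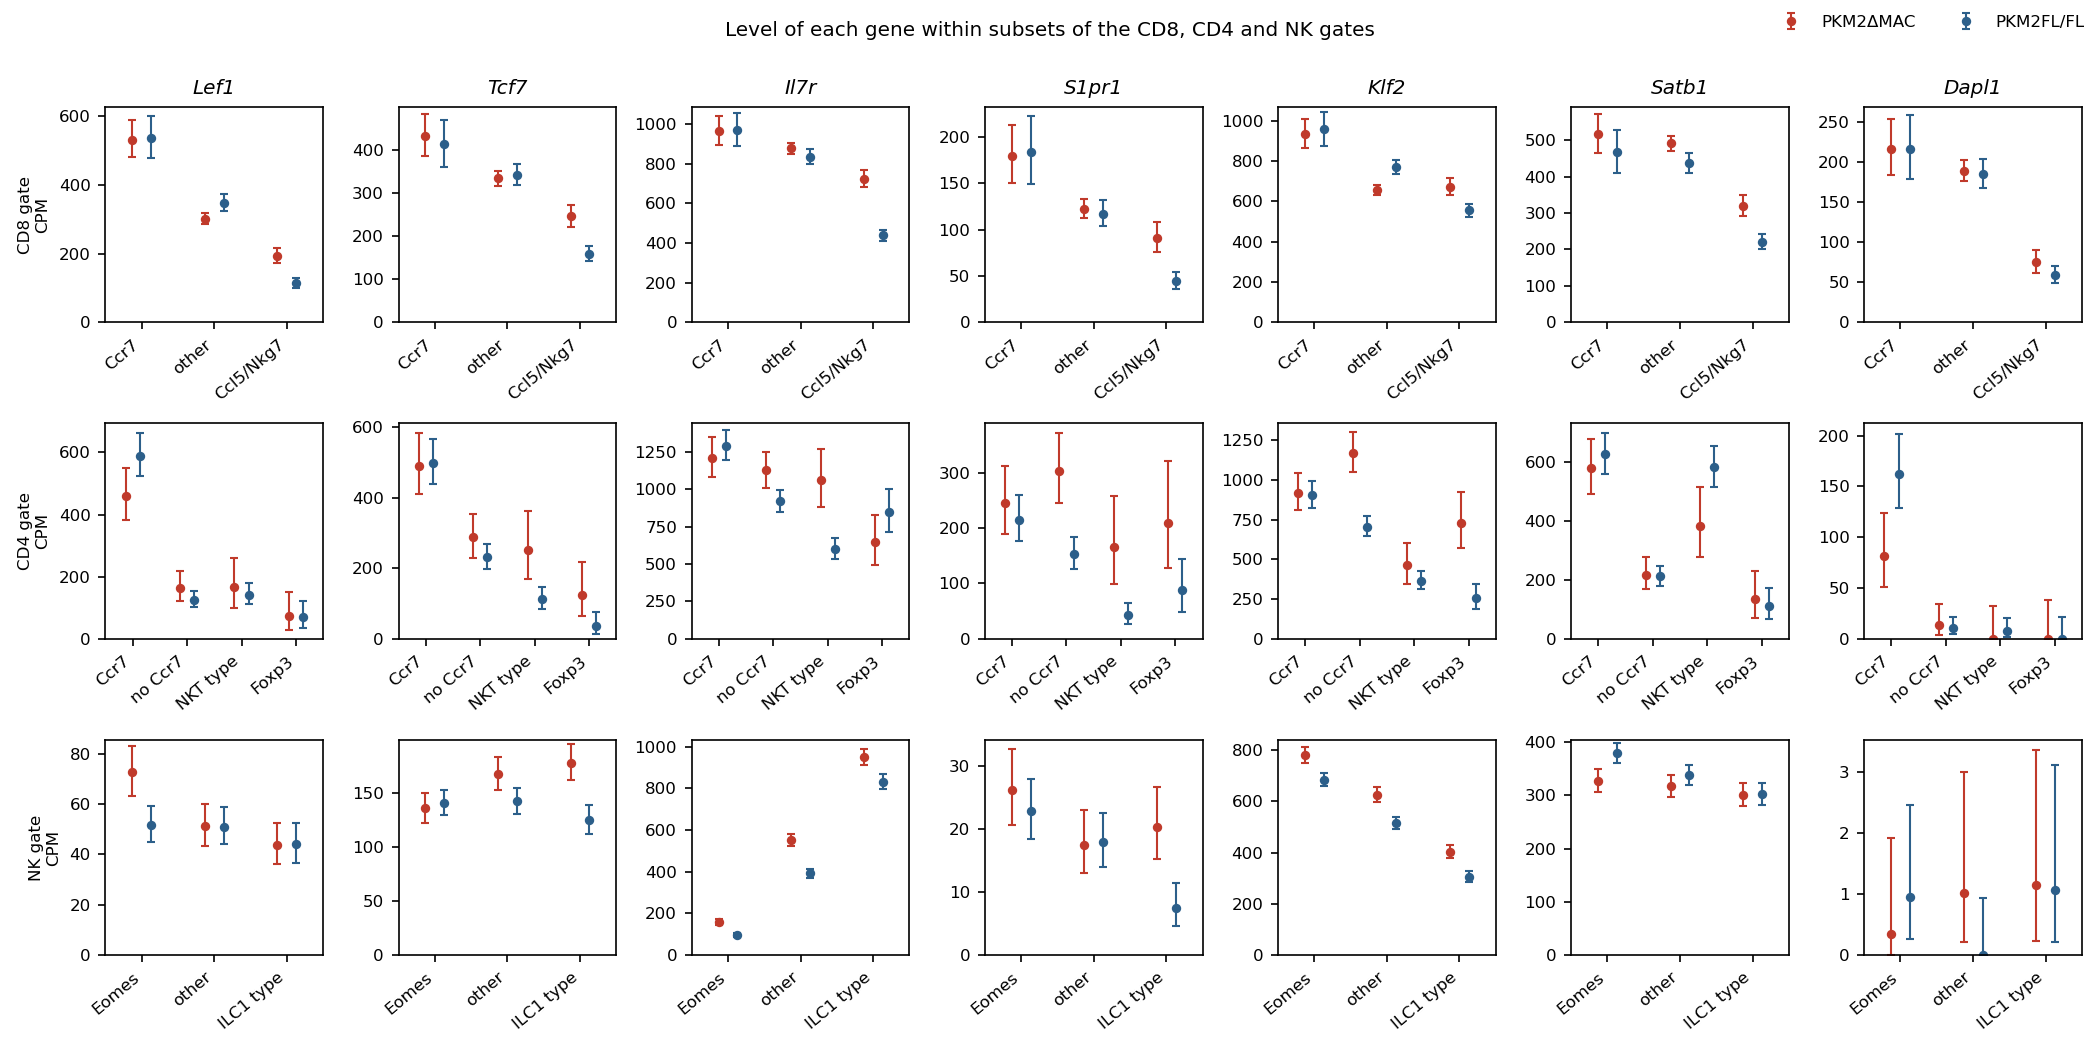
Level of each gene (CPM, linear axes from 0) within subsets of the CD8 (top), CD4 (middle) and NK (bottom) gates, with PKM2ΔMAC in red, PKM2FL/FL in blue and exact 95% Poisson bars. The CD8 Ccr7 type shows overlapping bars for all genes, S1pr1 in the Ccl5 or Nkg7 type was at 91.2 against 44.5 CPM, and in CD4 cells with Ccr7 Lef1 was at 461 against 590.2 CPM.

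Among NK and related innate cells Il7r differed most between the libraries. It was at 539.8 CPM (524 to 556) in PKM2ΔMAC cells and 392 CPM (380.4 to 404) in PKM2FL/FL cells (ratio 1.38, 1.32 to 1.44), with a UMI in 32.7% (30.4 to 35.1) and 24.6% (22.7 to 26.6) of cells thinned to 1000 UMIs, 56.0% and 47.3% unthinned, and 1.57% and 2.41% in thinned neutrophils, whose median depth was 2358 and 2173 UMIs. S1pr1 was at 21.4 and 17.1 CPM (1.2502, 1.01 to 1.54), Tcf7 at 160.2 and 138 CPM (1.16, 1.08 to 1.253), Klf2 at 610.5 and 526 CPM (1.16, 1.12 to 1.20) and Lef1 at 56.2 and 49.5 CPM (1.14, 1.002 to 1.29). Satb1 was at 316 CPM in PKM2ΔMAC cells and 345 CPM in PKM2FL/FL cells (0.917, 0.872 to 0.964). Of the 6 genes with at least 20 UMIs none reached 1.5-fold, which 4.66% of the 10951 measured genes did as higher and 6.74% as lower. The median log2 ratio of the 6 was 0.22, beside -0.06 over all genes.

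Splitting the NK gate showed where these levels lie. Cells with Eomes and without Cxcr6, Itga1 and Kit (NK type) numbered 530 in the PKM2ΔMAC library and 768 in the PKM2FL/FL library, and those with Cxcr6, Itga1 or Kit and no Eomes (group 1 innate lymphoid type) 443 and 465. Il7r was 5.95 times (5.38 to 6.58) as high in the innate lymphoid type as in the Eomes type in PKM2ΔMAC cells and 8.80 times (7.90 to 9.81) in PKM2FL/FL cells. Klf2 went the other way, at 0.516 and 0.448 times. Between the libraries Il7r was higher in PKM2ΔMAC cells of each kind, at 159.7 and 94.7 CPM in the Eomes type (1.69, 1.47 to 1.93), at 552 and 392 CPM in the remaining 619 and 732 cells (1.41, 1.31 to 1.51) and at 949.8 and 833 CPM in the innate lymphoid type (1.14, 1.08 to 1.21). Tcf7 was higher in the innate lymphoid type, at 178.5 and 125 CPM (1.42, 1.24 to 1.64), and level in the Eomes type, at 136 and 141 CPM, while Lef1 was higher in the Eomes type, at 72.6 and 51.7 CPM (1.41, 1.16 to 1.71), and level in the innate lymphoid type (0.991, 0.762 to 1.29). S1pr1 had 53 UMIs in PKM2ΔMAC and 21 UMIs in PKM2FL/FL cells of the innate lymphoid type, or 20.3 and 7.47 CPM (2.72, 1.61 to 4.75), and 26.2 and 22.8 CPM in the Eomes type (1.15, 0.836 to 1.57). In the remaining cells it had 51 and 70 UMIs, or 17.5 and 17.9 CPM (0.978, 0.668 to 1.42), an interval that includes 1 as in the Eomes type. Averaged over cells rather than summed, the log2 ratio of S1pr1 in the whole NK gate was 0.01 instead of 0.32.

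B cells were compared for the genes they express, which are S1pr1, Klf2 and Satb1. S1pr1 was at 167 CPM (157 to 178) in PKM2ΔMAC cells and 109.8 CPM (102 to 118) in PKM2FL/FL cells (ratio 1.52, 1.39 to 1.68), and in 15.3% (13.7 to 16.9) and 11.1% (9.69 to 12.6) of thinned cells, 34.8% and 28.8% unthinned. Klf2 was at 1105 and 986 CPM (1.12, 1.08 to 1.16) and Satb1 at 413 and 437 CPM (0.945, 0.896 to 0.996). Fcer2a, a receptor gene of follicular B cells, split the gate into 1201 PKM2ΔMAC and 927 PKM2FL/FL cells with a UMI of it and 1007 and 1011 cells without. S1pr1 was higher in the PKM2ΔMAC library in both, by 1.502-fold (1.32 to 1.72) and 1.53-fold (1.34 to 1.76). S1pr1 alone passed 1.5-fold as higher, as 4.58% of the 10346 measured genes did. Lef1, Tcf7 and Il7r passed as lower, as 8.44% did, but at 5.12 and 8.19 CPM, 5.43 and 8.79 CPM, and 12.6 and 25.0 CPM in PKM2ΔMAC and PKM2FL/FL B cells they lay at the level of neutrophils (2.76 and 7.62, 7.60 and 5.33, and 20.7 and 31.2 CPM) and are read as background. With the neutrophil level subtracted Lef1 turned to a log2 ratio of 2.03 while Tcf7 and Il7r were left with no level to compare. The median log2 ratio of the 6 measured genes was -0.38, beside -0.07 over all genes.

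Counts past other fold lines were also taken. At a ratio 25% above 1, 2 genes were higher in CD8 cells (Satb1 and S1pr1), 3 in CD4 cells (S1pr1, Klf2 and Tcf7) and 2 in NK cells (Il7r and S1pr1), where 10.1%, 18.8% and 11.2% of all measured genes were. At 20% below 1 there was 1 CD4 gene (Dapl1), where 29.6% of all genes were. No gene was 2-fold higher in CD4 or B cells, as 3.52% and 1.33% of all genes were, and none 2-fold lower in B cells, as 2.61% were. Among B cell genes with at least 100 UMIs, 1 of the 7 (Il7r) was 1.5-fold lower, as 4.34% of all were.

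S1pr1 was higher in the PKM2ΔMAC library, with an interval above 1, in all 4 gates. It was 1 of the 6 genes measured in each gate, and 1.47% of the 7907 genes measured in all 4 gates did the same. Its ratio in all other kept cells was 1.65 (1.51 to 1.80), at 61.9 CPM in PKM2ΔMAC and 37.6 CPM in PKM2FL/FL cells, but these cells include types that differ in number between the libraries. Neutrophils, with 7 UMIs in each library, held too little to compare. Cd69, whose protein pulls the S1P receptor from the cell surface, was detected in 25.7% of PKM2ΔMAC and 24.7% of PKM2FL/FL CD8 cells thinned to 1000 UMIs. CD4 cells had it in 19.4% and 20.1%, NK cells in 13.3% and 12.6%, and B cells in 22.0% and 25.8%. S1pr1 in thinned CD8 cells with Cd69 over those without stood at 0.653 (0.405 to 1.01) in the PKM2ΔMAC library and 1.40 (0.804 to 2.36) in the PKM2FL/FL library, and both intervals include 1. In CD4 cells it stood at 2.32 (1.12 to 4.64), from 27 cells with Cd69, and 1.41 (0.663 to 2.78). In NK cells it stood at 1.13 and 0.905 and in B cells at 0.930 and 1.31, with intervals that include 1.

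How many of the 7 genes a single cell carried was counted after each cell was thinned to 1000 UMIs, which left out 17 PKM2ΔMAC and 2 PKM2FL/FL CD8 cells and 124 and 30 B cells among others. CD8 cells held a mean of 2.17 genes in the PKM2ΔMAC library and 1.79 in the PKM2FL/FL library, and CD4 cells 2.22 and 1.85. At least 3 of the genes were found in 39.1% (36.0 to 42.3) of PKM2ΔMAC and 29.1% (25.8 to 32.5) of PKM2FL/FL CD8 cells. The same share was 41.0% (32.7 to 49.7) and 29.3% (24.5 to 34.5) in CD4 cells, 8.45% and 5.58% in NK cells and 3.12% and 3.25% in B cells. CD8 cells with none of the 7 were 10.1% in the PKM2ΔMAC library and 19.3% in the PKM2FL/FL library. For single genes, thinned shares of CD8 cells were 27.8% and 23.0% for Lef1, 28.3% and 21.9% for Tcf7, 53.4% and 44.2% for Il7r, 12.9% and 8.50% for S1pr1, 46.4% and 42.5% for Klf2, 33.8% and 27.6% for Satb1, and 14.4% and 11.2% for Dapl1. Unthinned, they were 74.5% and 64.7%, 78.1% and 65.7%, 89.3% and 76.1%, 48.4% and 37.3%, 83.4% and 83.3%, 83.9% and 69.1%, and 38.0% and 31.1%. Thinned neutrophils showed Lef1 in 0.175% of PKM2ΔMAC and 0.556% of PKM2FL/FL cells, Tcf7 in 0.524% and 0.185%, Il7r in 1.57% and 2.41%, and Satb1 in 4.72% and 6.48%. Klf2 was in 52.6% and 65.0% of them, more than in CD8 cells. Myeloid cells transcribe Klf2 themselves, so neutrophils give no background for its share of the count.

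**Figure D4:**
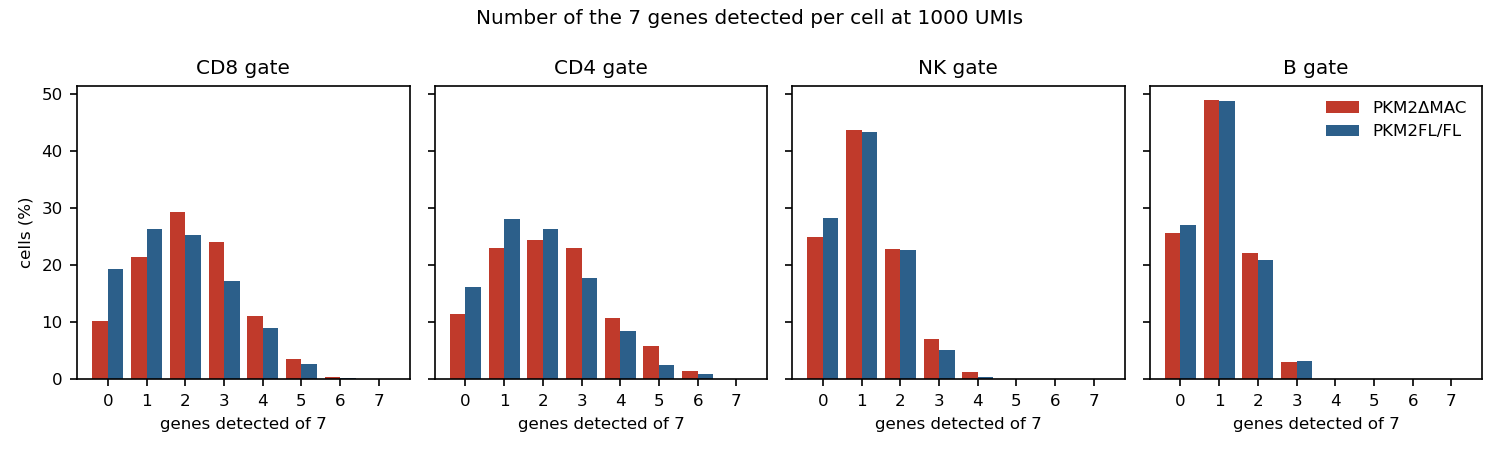
Share of cells (%) by the number of the 7 genes detected, in cells thinned to 1000 UMIs, for the CD8, CD4, NK and B gates, with PKM2ΔMAC bars in red left of PKM2FL/FL bars in blue. In CD8 and CD4 cells the PKM2ΔMAC bars are the taller ones from 3 genes upwards and the shorter ones at 0 and 1, while in B cells both libraries peak at 1 gene.

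Pairs of the genes met in the same CD8 cell more often than the product of their shares in the PKM2FL/FL library. Lef1 and Tcf7 were found together in 88 of 959 thinned PKM2ΔMAC CD8 cells (9.18%, where the product is 7.87%) and in 56 of 729 PKM2FL/FL CD8 cells (7.68%, where it is 5.06%). Over the 21 pairs the ratio of observed to product ran from 0.922 to 1.17 in PKM2ΔMAC CD8 cells and from 1.01 to 2.15 in PKM2FL/FL CD8 cells. The highest of these, S1pr1 with Dapl1, rests on 15 cells. In CD4 cells Lef1 and Satb1 met in 21 of 139 PKM2ΔMAC cells (15.1% against a product of 8.43%) and in 36 of 334 PKM2FL/FL cells (10.8% against 5.53%). This was among the higher pairs there. Over the 21 pairs the CD4 ratio ran from 0.543 to 1.88 in PKM2ΔMAC cells and from 0.612 to 2.68 in PKM2FL/FL cells. These ends are all pairs with Dapl1 and rest on 1, 4, 1 and 7 cells.

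Other genes of these programmes were read from fixed lists, several of which share members such as Ccr7, Bcl2, Klf3 and Tox. The counts past 1.5-fold in CD8 cells stand beside 3.73% higher and 12.9% lower among all genes measured there. In CD8 cells none of 23 other naive or resting genes was 1.5-fold higher and 1 was lower (median log2 ratio -0.15), Sox4 with 49 UMIs in PKM2ΔMAC and 54 UMIs in PKM2FL/FL cells (0.667). Ccr7, which guides cells into lymph nodes, was at 378 and 265 CPM (1.43, 1.33 to 1.53). Nsg2 (1.44) and the cytoskeletal gene Actn1 (1.34) lay on the same side, and Il6st (0.718), a signalling chain of cytokine receptors, on the other. Among 22 homing, adhesion and egress genes, 0 passed as higher and 7 as lower (median -0.27), all chemokine receptor or integrin genes, such as Cxcr6 (46.6 and 93.4 CPM, 0.499) and Ccr2 (27.5 and 51.4 CPM, 0.536). Effector or memory genes had 13 of 26 lower and 0 higher (median -0.56), for example the granzyme gene Gzmk (29 and 141 UMIs, 0.151), Pdcd1, the gene of PD-1 (0.294), and Ccl5 (2237 and 5418 CPM, 0.413). Of 9 interleukin 7 receptor pathway genes 2 were lower and 0 higher (median -0.17), the kinase gene Jak3 (0.596) and the feedback gene Cish (0.617). Of 11 TCF and LEF partners 3 were lower and 1 higher (median -0.26), where Axin2, a known target of β-catenin with TCF factors, was the one higher (31.7 and 21.1 CPM, 1.505, 1.18 to 1.92) and Tox (0.464) the lowest. None of 5 KLF relatives passed (median -0.33).

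In CD4 cells, where 9.32% of all measured genes were higher and 16.5% lower, 2 of 22 naive or resting genes were higher and 1 lower (median 0.07), with Nsg2 at 99.6 CPM in PKM2ΔMAC and 40.4 CPM in PKM2FL/FL cells (2.46, 1.77 to 3.43) and the kinase gene Txk at 0.542. Of 17 homing genes 3 were higher and 2 lower (median 0.11). S1pr4, a relative of S1pr1, was at 245 and 149.99 CPM (1.63, 1.35 to 1.97), and Ccr6, a receptor of interleukin 17-producing T cells, had 40 and 24 UMIs (4.002, 2.35 to 6.94), while Cxcr6 (0.524) and the integrin gene Itgal (0.547) were lower. Effector or memory genes split, 14 of 25 lower and 4 higher (median -0.76), with Ccl5 (0.279), Gzma (0.317) and Nkg7 (0.391) on one side and Lgals1 (2.86), S100a4 (2.24) and S100a6 (1.75) on the other. The interleukin 7 receptor pathway had 3 of 9 lower (median -0.45), among them the feedback genes Socs1 (0.550) and Cish (0.542). The shared γ chain gene Il2rg was at 133 and 193 CPM (0.688), and Il7r itself at 1.17. TCF and LEF partners had 2 of 10 lower (median -0.11) and KLF relatives 1 of 5 (median -0.24), Klf4 at 0.666.

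In NK cells, where 4.66% of all measured genes were higher and 6.74% lower, 4 of 21 naive or resting genes were higher and 0 lower (median 0.15), Trib2 at 11.2 and 6.34 CPM (1.76, 1.28 to 2.44) among them, and Bcl2, a survival gene downstream of interleukin 7, was at 414 CPM in PKM2ΔMAC and 559 CPM in PKM2FL/FL cells (0.741, 0.711 to 0.773). Others among these 4 higher genes rested on few UMIs (25 and 20, and 14 and 8), with intervals that include 1. Homing genes had 2 of 20 higher (median 0.09), with Cx3cr1 at 35 and 18 UMIs (2.51) and the other at 14 and 8 UMIs. Effector genes had 4 of 26 higher and 0 lower (median 0.12), led by the chemokine genes Ccl4 (2046 and 894 CPM, 2.29) and Ccl3 (934 and 492 CPM, 1.90). No gene passed among the 10 of the interleukin 7 receptor pathway (median -0.28), the 11 TCF and LEF partners (median 0.00) or the 5 KLF relatives (median -0.18). In B cells, where 4.58% were higher and 8.44% lower, 1 of 20 naive or resting genes was lower (Txk, 0.569, median -0.12), 1 of 18 homing genes higher and 2 lower (Ccr2 at 0.423, median -0.18), 3 of 9 pathway genes lower (Stat5a at 0.544, median -0.43), 1 of 10 partners lower (median -0.15) and 1 of 21 effector genes higher and 6 lower (median -0.14). The KLF relatives Klf10 (11.5 and 23.8 CPM, 0.481) and Klf4 (189.9 and 308 CPM, 0.616) were the 2 of 5 that passed as lower there (median -0.52), while Klf2 was at 1.12.

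The genes whose level most resembled the mean of the 7 were ranked over 20 points, which are the subsets with at least 20 cells in each library, each library counted separately, so that points share libraries and depth. Among 4077 genes the 10 closest were Rgs10 (Pearson r 0.97), Actn1 (0.96), Fam78a (0.96), Als2cl (0.96), Nsg2 (0.95), Smc4 (0.94), Atp1b3 (0.94), Peli1 (0.94), Ms4a6b (0.94) and Tdrp (0.94). Nsg2 ran from 0.694 to 171 CPM over the points. Among the 7 themselves Tcf7 and Il7r were closest (r 0.94), then Lef1 and Tcf7 (0.93) and Lef1 and Dapl1 (0.89). S1pr1 and Klf2 formed the other close pair (0.82), and neither resembled Lef1 (0.35 and 0.03) or Il7r (0.01 and -0.38).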

How the data were processed

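UMI counts per gene and cell barcode were deposited by the authors as whole numbers. Per the file headers the software was Cell Ranger 6.0.0. The build mm10 and Seurat 4.3.0 are named per the submitters' processing notes, with no use of Seurat stated. The shallowest barcode in either library held 502 UMIs, and the sources used here do not give the barcode filter behind that. A minimum of 300 genes and a maximum of 20% mitochondrial UMIs removed 72 PKM2ΔMAC and 64 PKM2FL/FL barcodes, and Scrublet (scanpy 1.11.5, expected rate 0.08) removed 328 (3.69%) and 480 (4.80%) as doublets. Free RNA was not subtracted, except in 1 alternative.

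Gates needed at least 2 UMIs of CD3 genes with Cd8a or Cd8b1 and no Cd4 (CD8), or the reverse (CD4), at least 2 UMIs of NK markers including Ncr1 or Klrb1c without CD3 (NK), or at least 2 UMIs of B cell markers without CD3, Ncr1 or Klrb1c (B), all without UMIs of Csf1r, Csf3r or Siglech. T and NK gates excluded B cell markers, and neutrophils needed Csf3r and at least 10 UMIs of S100a8 and S100a9. UMIs were summed over a gate and divided by its total. CPM carry exact Poisson, shares exact Clopper-Pearson and ratios exact conditional intervals. A gene counted as measured from 20 UMIs, both libraries together, and as apart from 1.5-fold, by size alone. The script was tested on simulated data.

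The 7 genes are always named. Of each list and gate, up to 4 genes per direction with at least 50 UMIs and farthest from a ratio of 1 could be named. Likeness used log2(CPM + 10) and genes with at least 50 CPM in 1 point. The genes, lists and rules were chosen with earlier results of these data known. The deposited symbols used here did not include Ighd, so Fcer2a split the B gate. That split, the Cd69 split, the counts of intervals above 1 and 2 of the alternatives were added after the data had been seen. The CD8 and CD4 subsets by Ccr7 replace a split chosen before, which, with 2 genes of the lists, is not reported here, and this change too came after the data had been seen. Positions come from GENCODE M21. Calculations ran in pandas 2.3.3, anndata 0.12.19, scipy 1.17.1 and numpy 2.4.6 under Python 3.11.15, with plots from matplotlib 3.10.9.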

Additional observations from a re-analysis of the deposited data

How the results depend on the processing

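The 28 ratios (7 genes in 4 gates) were recomputed under other filters, gates, scalings and subsets, which gave 305 values. Of these, 288 kept the direction, 252 lay within the counting interval of the reported value, and 11 moved by over 1.5-fold. Some values reversed a ratio whose interval excluded 1, and 3 of them concern background-level genes in the B gate. There Lef1 was at a log2 ratio of 0.0102 in thinned cells and 2.03 with the neutrophil level subtracted. Tcf7 was at 0.14 with gates from 1 UMI. Satb1 in the B gate turned to 0.02 with the neutrophil level subtracted. In the NK gate Lef1 turned to -0.01 in the innate lymphoid type and Tcf7 to -0.06 in the Eomes type. Counts of genes past 1.5-fold moved as follows. CD8 genes higher, 0 as reported, were 1 with the neutrophil level subtracted and 2 at a ratio 25% above 1. CD4 genes higher, 1 as reported, were 2 with gates from 4 UMIs or after division by the median ratio, 3 at a ratio 25% above 1 and 0 at 2-fold. CD4 genes lower, 0 as reported, were 1 by the mean of cells' own CPM, without cells with Foxp3, Zbtb16, Il4 or Klrb1c, and at a ratio 20% below 1. NK genes higher, 0 as reported, were 1 in thinned cells and in either NK subset, and 2 at a ratio 25% above 1. B genes higher, 1 as reported, were 0 in thinned cells or at 2-fold and 2 with the neutrophil level subtracted. B genes lower, 3 as reported, were 0 with doublets kept, in thinned cells, with the neutrophil level subtracted or at 2-fold, and 1 with gates from 1 UMI or at least 100 UMIs per gene. The cause of these shifts was not tested. Among these 305 values the ratio of S1pr1 stayed above 1 in all 4 gates, but in NK cells it came down to a log2 ratio of 0.01, a level value, by the mean of cells' own CPM. Not all subsets were among the 305 values. S1pr1 was at 0.978 (0.668 to 1.42) in the remaining NK cells and 0.978 (0.748 to 1.28) in the CD8 Ccr7 type, and above 1 in the other subsets. No paired analysis was possible because each genotype had 1 library, and for the same reason none could be left out. Depth limited Dapl1 in NK and B cells, with 14 and 6 UMIs.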
